A study of Mus musculus with 6 samples.

Results

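The genes described are 8 Ras GTPase-activating proteins (Ras GAPs), Rasal1, Rasal2, Rasal3, Rasa1, Rasa2, Rasa3, Nf1 and Dab2ip, found by gene name among 54532 rows of a gene count table. The table came from bulk RNA-seq of 6 libraries. Their labels give the cells as NIT-1, which was derived from a mouse insulinoma and serves as a beta-cell model. In the 3 EV_Tm libraries the cells had been given hucMSC-EVs, vesicles shed by mesenchymal stem cells of the human umbilical cord, for 16 h. In the 3 PBS_Tm libraries they had been given PBS over the same time. Both groups then had 8 h of Tm, which the labels do not spell out. Tunicamycin, which blocks protein glycosylation and stresses the endoplasmic reticulum, is commonly written so. One label calls the PBS_Tm samples untreated, whereas their titles and the design text place them under Tm, which is how they are read. Cells without Tm were not analysed here. Rasal1 was put forward because its difference between EV_Tm and PBS_Tm in these same libraries was among the largest, and the other members by family. Values of that contrast are therefore given as a description for all 8 genes, with no p. How many members passed the threshold of the fit over all genes is likewise a description.

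Ras proteins relay signals from receptors at the membrane while they hold GTP. Exchange factors load them with GTP, and Ras GAPs speed up the hydrolysis of that GTP and so switch Ras off. In beta cells the Ras and ERK route is known to respond to growth factors and glucose. Rasal1, Rasa2 and Rasa3 belong to the GAP1 group, whose members carry paired C2 domains, and Rasal1 is known to be drawn to the membrane by calcium. Rasa1 encodes the SH2-domain protein p120 Ras GAP, and Nf1 encodes the tumour suppressor neurofibromin. Dab2ip, Rasal2 and Rasal3 form a further group related to one another.

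The libraries held 28654248 to 32550268 counts, and 16844 genes had enough counts to be tested. Whether a group's samples were separate cultures is not stated in the labels, so p-values measure only the spread among the libraries at hand, possibly a technical one. Of 14 beta-cell markers, 8 had no count in any library (Ins2, Iapp, Pdx1, Nkx6-1, Slc30a8, G6pc2, Pcsk1 and Ucn3), and no library had more than 14 counts of any of them. Their summed level was 0.310 to 1.10 CPM (counts scaled to library size with TMM factors) in EV_Tm and 0.133 to 0.597 CPM in PBS_Tm. The label beta cell is thus not borne out by these markers, and the libraries are called by their group names. Summed markers of other islet cells were at 0.739 to 1.17 CPM in EV_Tm and 0.563 to 0.912 CPM in PBS_Tm. Those of endothelial cells were at 29.0 to 30.6 CPM in EV_Tm and 31.6 to 33.6 CPM in PBS_Tm. Those of fibroblasts were at 11.4 to 13.0 CPM in EV_Tm and 18.2 to 20.3 CPM in PBS_Tm, and those of macrophages at 4.37 to 6.41 CPM in EV_Tm and 2.78 to 4.46 CPM in PBS_Tm. Sst and Kdr were at 0 throughout. The sum of other islet cells was almost all Ghrl, at 17 to 33 counts, as Gcg and Ppy had at most 5 counts in any library. In the fibroblast sum, Pdgfrb was at 2.28 CPM in EV_Tm and 6.64 CPM in PBS_Tm, and Col1a1 at 1.91 and 3.27 CPM. Pdgfra was at 7.67 CPM in EV_Tm and 9.06 CPM in PBS_Tm, with overlapping groups. Col1a2 and Dcn had at most 12 counts in any library. The macrophage sum was almost all Cd68, at 82 to 186 counts, as Ptprc, Adgre1 and Csf1r had at most 4 counts in any library. The endothelial sum was mostly Pecam1, at 24.5 CPM in EV_Tm and 28.5 CPM in PBS_Tm. Cdh5 leaned the other way, at 5.14 CPM in EV_Tm and 3.97 CPM in PBS_Tm. Whether such cells were present, and their part in the differences below, was not tested. In bulk RNA, fewer cells of a type and less RNA per cell cannot be told apart.

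The members lie on 8 chromosomes. On GRCm38, in the coordinates of the deposited table, Rasal1 spans chr5:120648812-120679597 on the plus strand, Nf1 chr11:79339693-79581612 on the plus strand and Dab2ip chr2:35558266-35730994 on the plus strand. On the minus strand, Rasal2 spans chr1:157135182-157412595, Rasal3 chr17:32390659-32403583, Rasa1 chr13:85214780-85289130, Rasa2 chr9:96539300-96631617 and Rasa3 chr8:13566948-13677603. Start regions were found in RefSeq (GRCm38.p6) for 7 of 8 members, and there was no entry for Rasal1. The 250 bases before the start are shown for Rasa3, which had the highest level per length of the 8 genes in PBS_Tm, and for Rasal3, which had the lowest. CpG dinucleotides (letters CG, which read the same on both strands) are in capitals, and both sequences run 5′ to 3′ on the minus strand, at chr8:13677588-13677837 and chr17:32403583-32403832.
Rasa3: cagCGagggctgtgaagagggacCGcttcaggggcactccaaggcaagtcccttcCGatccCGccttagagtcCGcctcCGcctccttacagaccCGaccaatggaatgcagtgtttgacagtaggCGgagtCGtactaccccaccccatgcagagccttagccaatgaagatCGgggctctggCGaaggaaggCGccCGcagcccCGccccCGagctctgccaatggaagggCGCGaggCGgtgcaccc
Rasal3: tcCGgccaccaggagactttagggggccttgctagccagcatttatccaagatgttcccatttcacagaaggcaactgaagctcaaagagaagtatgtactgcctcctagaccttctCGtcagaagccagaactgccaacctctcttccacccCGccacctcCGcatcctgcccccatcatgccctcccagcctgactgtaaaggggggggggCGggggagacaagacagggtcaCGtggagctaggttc
The Rasa3 window held 18 CpGs and the Rasal3 window 6. Among 32851 windows of the same length, the median was 6, 92.1% held at least 1 CpG, 21.7% held as many as Rasa3 or more and 50.4% as many as Rasal3 or more. The window before Nf1 held 21, that before Rasal2 23, and those before Rasa1 and Rasa2 24 each. Dab2ip has 4 annotated starts, whose windows held 10, 21, 17 and 4. Of the members with a window, Rasal3 alone had none above 6.

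Rasal1 was the member with the large difference. It had 116, 114 and 123 CPM in the EV_Tm libraries, against 27.2, 23.2 and 23.7 CPM in the PBS_Tm libraries. All 3 EV_Tm values stood far above all 3 PBS_Tm values, and within each group the libraries lay close together. The means were 118 ± 4.95 CPM in EV_Tm and 24.7 ± 2.18 CPM in PBS_Tm (SD, n = 3 each). The counts behind these levels were 3599, 3305 and 3970 in EV_Tm, against 866, 701 and 762 in PBS_Tm. The fitted ratio was 4.76-fold, a log2 fold change of 2.25 ± 0.06 (SE). Among the 16844 genes tested, 38 had a higher log2 fold change than Rasal1, and 0.582% had a larger one in either direction.

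**Figure D1:**
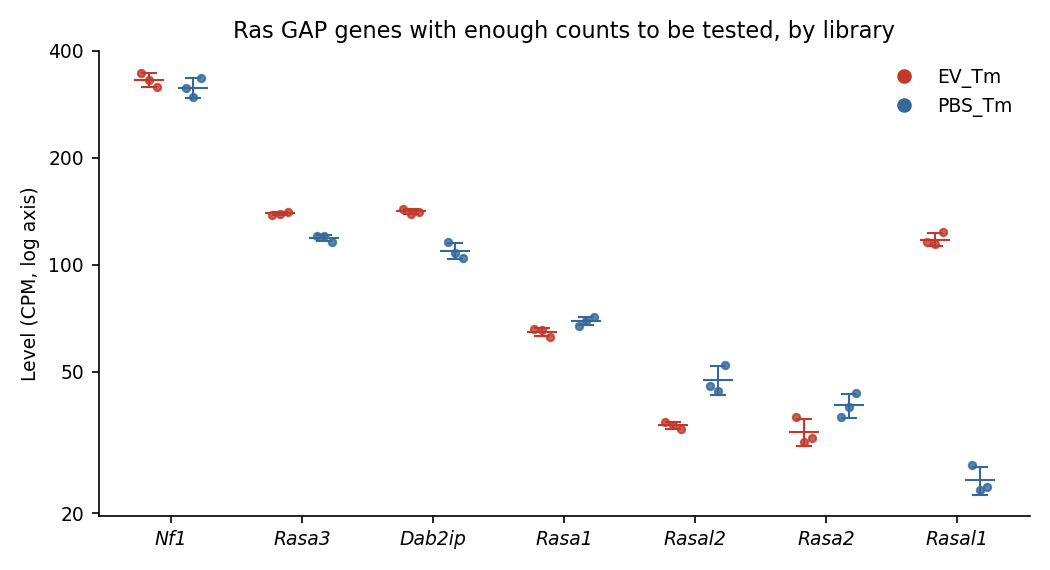
Level of each tested Ras GAP gene in CPM on a log axis, with EV_Tm in red on the left and PBS_Tm in blue on the right of each gene. Points are libraries, and bars are the mean and SD of 3. Rasal1 is at 114 to 123 CPM in EV_Tm and 23.2 to 27.2 CPM in PBS_Tm, while the 2 groups of each other gene lie close together.

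The other GAP1 genes differed little and in opposite directions. Rasa3, which binds inositol phosphates and also acts on Rap, had 138, 139 and 141 CPM in EV_Tm, against 120, 120 and 116 CPM in PBS_Tm. The EV_Tm libraries were all higher, by a small margin (log2 fold change 0.23 ± 0.04, SE). Rasa2 had 37.3, 31.8 and 32.6 CPM in EV_Tm, against 37.3, 39.8 and 43.4 CPM in PBS_Tm. Here the highest EV_Tm library reached the lowest PBS_Tm library, so the groups overlapped (-0.24 ± 0.07, SE).

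The best-known Ras GAPs were nearly level between the groups. Nf1 had 346, 332 and 316 CPM in EV_Tm, against 314, 296 and 335 CPM in PBS_Tm, and the groups overlapped (log2 fold change 0.07 ± 0.05, SE). Rasa1 had 65.8, 65.7 and 62.6 CPM in EV_Tm, against 67.4, 69.5 and 71.2 CPM in PBS_Tm. The Rasa1 groups lay just apart, with EV_Tm lower (-0.10 ± 0.05, SE). Rasa1 and Ccnh, a cyclin gene on the opposite strand that was 1.23-fold lower in EV_Tm (edgeR adjusted p = 0.00120), share 12 exon bases, and whether counting used strand is not given in the sources used here.

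Dab2ip and its relatives Rasal2 and Rasal3 went different ways. Dab2ip, a scaffold of stress and survival signalling, had 144, 139 and 141 CPM in EV_Tm, against 116, 108 and 104 CPM in PBS_Tm. All EV_Tm libraries were higher (log2 fold change 0.37 ± 0.05, SE). Rasal2 had 36.1, 35.3 and 34.6 CPM in EV_Tm, against 45.5, 44.0 and 52.3 CPM in PBS_Tm. All EV_Tm libraries were lower, by 1.34-fold, which was the largest fold of any tested member other than Rasal1 (-0.42 ± 0.07, SE). At its start, Rasal2 shares 244 exon bases with a pseudogene on the opposite strand, 2810025M15Rik, which had 602 to 713 counts and did not pass (0.05 ± 0.08 in log2, SE; edgeR adjusted p = 0.618). Dab2ip shares 347 exon bases with Gm13446 on the opposite strand, which had at most 4 counts in any library. Rasal3, known mainly from blood cells, had 6, 1 and 2 counts in EV_Tm, against 0, 3 and 6 counts in PBS_Tm. The sums were 9 in each group, each with an exact Poisson interval (95%) of 4.12 to 17.1, which covers counting error only. It was not tested, no fold is given, and at this depth no difference was detectable. The single count of 0, in PBS_Tm replicate 1, is compatible with as many as 3 counts, or 0.0943 CPM.

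In all, 7 of 8 members had enough counts to be tested, 5 of which had an adjusted p under 0.05 (edgeR quasi-likelihood, Benjamini-Hochberg over all genes), where 47.4% of all genes tested did. Rasal1, Rasa3 and Dab2ip were higher in EV_Tm, a direction called for 22.6% of all genes tested, and Rasal2 and Rasa2 were lower, called for 24.7%. The groups did not overlap for 5 of the 7, against 54.5% of all genes tested. Since the family was chosen on this contrast, these counts are a description. The median log2 fold change of the 7 was 0.07, beside 0.01 over all genes tested. Apart from Rasal1, the log2 fold changes ran between -0.42 and 0.37, and the median size over all genes tested, whichever the direction, was 0.28. Rasa2 left the 5 without EV_Tm replicate 2 or EV_Tm replicate 3, which gave 4 each. Without PBS_Tm replicate 3, Rasa2 left them and Nf1 joined, which again gave 5.

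**Figure D2:**
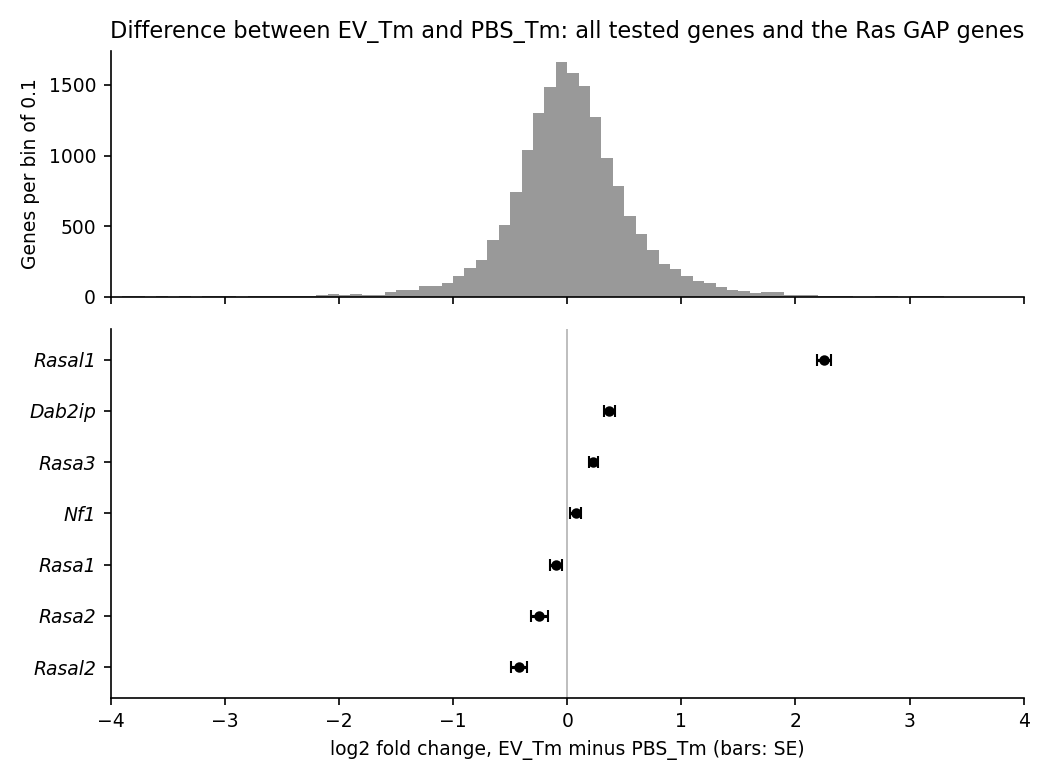
Log2 fold change, EV_Tm minus PBS_Tm. The upper panel counts all tested genes in bins of 0.1 (7 genes lie outside the axis), and the lower panel gives each tested Ras GAP gene with its SE. Rasal1 lies at 2.25, in the sparse right tail, and the other 6 genes lie between -0.42 and 0.37, within the bulk of all genes.

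Levels can be compared between genes only per length, as CPM per kilobase of the deposited gene length, which counts all annotated exon bases of a gene. In EV_Tm the order of these levels was Rasal1 (33.2 ± 1.40), Rasa3 (27.4 ± 0.28), Nf1 (20.9 ± 0.93), Dab2ip (16.9 ± 0.31), Rasa1 (8.84 ± 0.25), Rasal2 (2.57 ± 0.06), Rasa2 (2.14 ± 0.19) and Rasal3 (0.020 ± 0.017). In PBS_Tm it was Rasa3 (23.3 ± 0.46), Nf1 (19.9 ± 1.24), Dab2ip (13.1 ± 0.71), Rasa1 (9.47 ± 0.26), Rasal1 (6.98 ± 0.62), Rasal2 (3.44 ± 0.32), Rasa2 (2.53 ± 0.19) and Rasal3 (0.019 ± 0.019; SD, n = 3 throughout). In both groups every gene stood clear of the next in the order, with no overlap between their 3 libraries. Rasal1 held the top place in EV_Tm and the fifth in PBS_Tm, and the other 7 genes kept the same order among themselves. Per length, Rasal1 was at 1.59 ± 0.13 times Nf1 in EV_Tm, against 0.352 ± 0.036 times Nf1 in PBS_Tm.

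**Figure D3:**
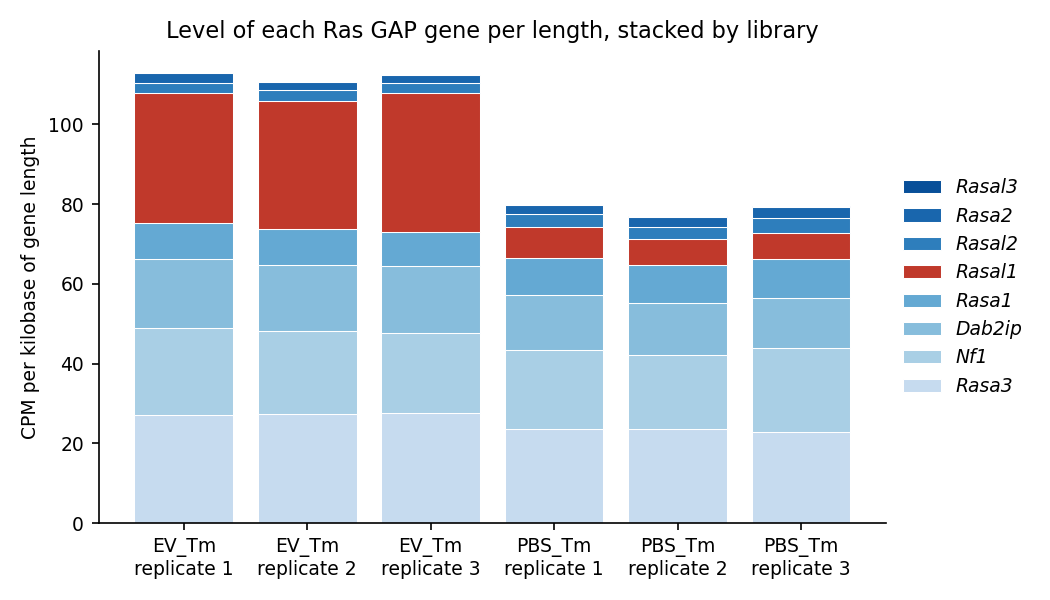
CPM per kilobase of gene length for the 8 Ras GAP genes, stacked for each of the 6 libraries, EV_Tm on the left. Rasal1 (red) makes up 28.9% to 31.0% of the stack in EV_Tm and 8.43% to 9.64% in PBS_Tm. The other genes (blue) sum to 77.6 to 80.2 in EV_Tm and 70.4 to 72.7 in PBS_Tm, and Rasal3 is too low to be seen.

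The family as a whole was higher in EV_Tm, mostly through Rasal1. Summed per length, the 8 genes reached 112 ± 1.23 CPM per kilobase in EV_Tm and 78.7 ± 1.58 in PBS_Tm (SD, n = 3 each), a ratio of 1.42. Without Rasal1 the sums were 78.7 ± 1.31 in EV_Tm and 71.7 ± 1.23 in PBS_Tm, a ratio of 1.10, and the 3 libraries of each group still lay apart. Sums per length give more weight to Rasal1, the shortest member, which was put forward for its difference. In CPM, not divided by length, the 8 genes summed to 864 in EV_Tm and 725 in PBS_Tm. That ratio was 1.19, and it was 1.07 without Rasal1. As a share of the family's reads, Rasal1 took 13.1% to 14.5% in EV_Tm, against 3.18% to 3.74% in PBS_Tm.

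Genes around Rasal1 moved in several ways. Of 14 genes of the table within 100 kb, 8 were tested, 4 of which rose, 1 fell and 3 did not pass. Over all genes tested, 22.6% rose and 24.7% fell. The nearest of them, Dtx1, a ubiquitin ligase of Notch signalling, lies 604 bases beyond the end of Rasal1 and runs towards it on the minus strand. Dtx1 had 11.6, 10.2 and 9.87 CPM in EV_Tm, against 3.68, 4.14 and 4.32 CPM in PBS_Tm. Its groups were well apart and it rose 2.60-fold (log2 fold change 1.38 ± 0.14, SE, edgeR adjusted p = 6.99e-09), less than Rasal1. On the other side, the RNA helicase gene Ddx54 rose by 0.30 ± 0.05 (log2, SE; edgeR adjusted p = 1.93e-05). The lysosomal channel gene Tpcn1 rose by 0.53 ± 0.06 (adjusted p = 2.15e-08), and the transcript 2510016D11Rik, within the Tpcn1 span, by 1.01 ± 0.27 (adjusted p = 0.00347). 2510016D11Rik lies on the same strand as Tpcn1 and had 66 to 95 counts in EV_Tm and 29 to 46 counts in PBS_Tm. Whether reads of Tpcn1 were counted in it was not tested.

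Oas3, an interferon-induced gene, had 34 to 44 counts in EV_Tm and 60 to 71 counts in PBS_Tm, and fell by 0.78 ± 0.27 (log2, SE; edgeR adjusted p = 0.0196). Its call was lost without EV_Tm replicate 2 (adjusted p = 0.0513), EV_Tm replicate 3 (0.0609) or PBS_Tm replicate 2 (0.0576). Rita1 had a log2 fold change of 0.06 ± 0.09, Iqcd one of 0.60 ± 0.39 and Cfap73 one of -0.28 ± 0.58 (SE), and none of them passed. A non-coding gene, Gm15749, ends 62 bases before the start of Rasal1 on the same strand and was too low to be tested. It had 18, 9 and 21 counts in EV_Tm, against 6, 0 and 2 counts in PBS_Tm. The sums were 48 (95% exact Poisson interval 35.4 to 63.6) in EV_Tm and 8 (3.45 to 15.8) in PBS_Tm. Oas2, an interferon-induced gene beyond Dtx1, was also too low to be tested and lay the other way. It had 5, 4 and 7 counts in EV_Tm, against 9, 10 and 26 counts in PBS_Tm, and in CPM the groups did not overlap. Its sums were 16 counts in EV_Tm and 45 in PBS_Tm. Gm15749 and Oas2 were singled out after their counts were seen.

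**Figure D4:**
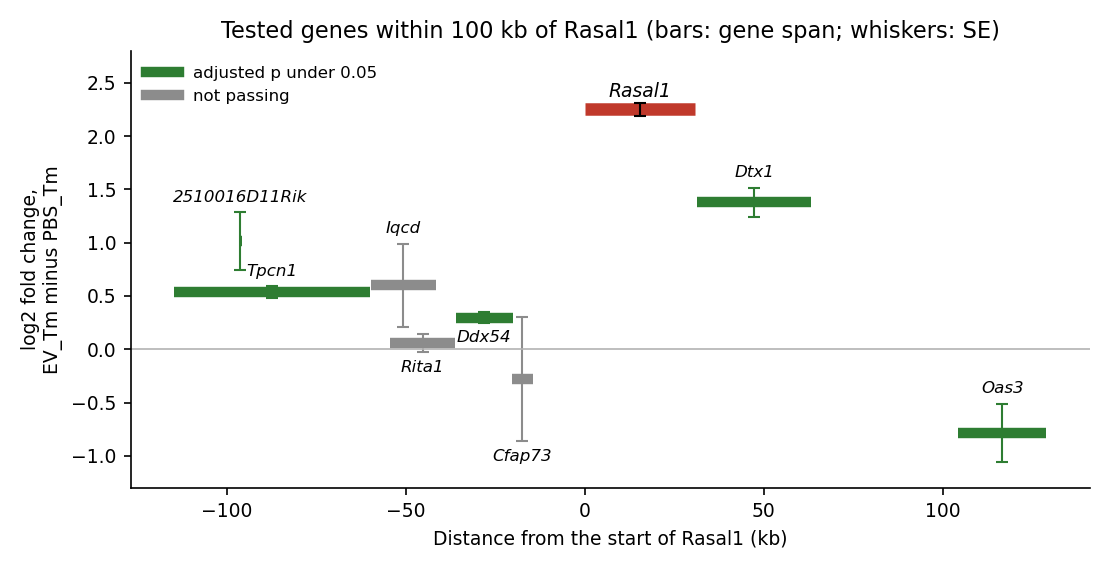
Log2 fold change, EV_Tm minus PBS_Tm, of Rasal1 (red) and of the 8 tested genes within 100 kb, against the distance from the start of Rasal1 in kb. Horizontal bars are gene spans and whiskers the SE. Green genes passed at an adjusted p under 0.05 and grey ones did not. Dtx1, next to the end of Rasal1, lies at 1.38, and Oas3, the farthest to the right, at -0.78.

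Profiles over the 6 libraries were compared with that of Rasal1 among tested genes outside the members. Symbols made of Gm and digits, those with Rik and bare identifiers were left out. The genes most like Rasal1 were then Tmprss13, Hspa8, Cxcl1, Uqcrh and Add2. Likeness was the root mean square difference in log2 CPM, each gene being centred on its own mean, and these 5 lay at 0.11, 0.14, 0.18, 0.19 and 0.19. Tmprss13, a membrane serine protease gene, had 467, 365 and 431 counts in EV_Tm, against 106, 85 and 100 counts in PBS_Tm. Hspa8, a cytosolic chaperone gene far more abundant in CPM, had 1395, 1381 and 1367 CPM in EV_Tm, against 344, 342 and 339 CPM in PBS_Tm. All 5 were high in EV_Tm, with folds of 3.79 to 5.87, so the likeness follows mainly the difference between the groups.

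The other genes of the Ras pathway were set out in 9 lists of 104 genes, 96 of which were tested. Of these, 27 rose, 32 fell and 37 did not pass (edgeR, adjusted p under 0.05), with a median log2 fold change of -0.04. Beside these and the counts for each list stand the shares over all genes tested, of which 22.6% rose and 24.7% fell, with a median of 0.01. No list is called particular from its counts. None of the 96 had a larger log2 fold change upwards than Rasal1. Rasal1 was put forward for its large difference, and only 38 of the 16844 genes tested lay higher. The comparison therefore does not set it apart from the lists. The highest of the 96 was Dusp5, at 1.68, a gene singled out after its value was seen. Dusp5 was low, at 71 to 126 counts in EV_Tm and 25 to 32 counts in PBS_Tm.

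Of 10 tested Ras and Rap GTPases, 2 rose, 4 fell and 4 did not pass (median -0.12). Mras, a relative that works with Shoc2, fell by 0.86 ± 0.04 (log2, SE; edgeR adjusted p = 4.03e-14), Rap2a by 0.47 ± 0.05 (6.75e-09) and Rap1a by 0.27 ± 0.06 (7.46e-04). Rras rose by 0.45 ± 0.08 (2.95e-05) and Rap1b by 0.16 ± 0.04 (0.00248). Hras, at 0.02 ± 0.06, and Nras, at -0.09 ± 0.05, did not pass.

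Of 6 tested exchange factors, which oppose the GAPs, 3 fell, 0 rose and 3 did not pass in edgeR, with a median of -0.23. Also 0 rose at an unadjusted p under 0.05, in DESeq2 and in limma-voom. Over all genes tested, 22.6% rose and 24.7% fell. Those that did not pass went both ways, Rasgrf2 at 0.37 ± 0.20, Rasgrp4 at 0.10 ± 0.10 and Rasgrp2 at -0.63 ± 0.37 (log2, SE). Sos1 and Sos2, the widely used exchange factors downstream of receptors, fell by 0.16 ± 0.04 (adjusted p = 0.00203) and 0.30 ± 0.06 (1.49e-04) on the log2 scale. Rasgrp3 fell by 2.05 ± 0.32 (1.03e-05) at 10 to 42 counts in EV_Tm and 89 to 130 counts in PBS_Tm. Of 11 tested adaptors between receptors and Ras, 0 rose, again 0 at an unadjusted p under 0.05 and with the other tools. With library size alone, however, 2 rose. The median was -0.05, and 5 fell. These were Shc2 (-2.39 ± 0.30, adjusted p = 4.36e-07), at 10 to 29 counts in EV_Tm and 106 to 124 in PBS_Tm, Gab2 (-0.49 ± 0.07, 1.85e-06), Gab1 (-0.38 ± 0.06, 7.07e-06), Crk (-0.15 ± 0.04, 0.00254) and Crkl (-0.12 ± 0.05, 0.0397). The Crkl call was lost without EV_Tm replicate 1 (adjusted p = 0.0666), EV_Tm replicate 2 (0.0593), EV_Tm replicate 3 (0.159) or PBS_Tm replicate 1 (0.123), with the replicate number as a block (0.0697), with library size alone (0.165) and with a filter of 1 CPM in 3 libraries (0.0584).

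Further genes with a GAP or related domain went both ways, with 5 of 10 tested higher, 3 lower and 2 not passing (median 0.18). Sipa1, a Rap GAP, rose by 0.74 ± 0.05 on the log2 scale (edgeR adjusted p = 1.08e-11). Iqgap3 rose by 0.61 ± 0.05 (7.04e-10), Sipa1l3 by 0.43 ± 0.05 (2.04e-07), Sipa1l2 by 0.34 ± 0.05 (1.84e-06) and Iqgap1 by 0.32 ± 0.04 (1.16e-07). The IQGAP proteins carry a Ras GAP-like fold but are known as scaffolds. Rap1gap fell by 0.29 ± 0.05 (1.83e-05) and Sipa1l1 by 0.24 ± 0.04 (5.39e-05). Rasa4, the calcium-responsive GAP1 relative of Rasal1, had 1289, 1225 and 1227 counts in EV_Tm, against 1401, 1248 and 1328 counts in PBS_Tm. Its groups overlapped in CPM and it did not pass (-0.06 ± 0.06, adjusted p = 0.490).

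The list of partners of neurofibromin and p120 Ras GAP had 8 of 12 tested genes higher, 3 lower and 1 not passing (median 0.35). It takes in the Dok adaptor family whole, and whether each Dok product binds p120 Ras GAP was not tested. Spred1, Spred2 and Spred3, whose products bring neurofibromin to the membrane, rose by 0.36 ± 0.04 (edgeR adjusted p = 2.35e-07), 0.45 ± 0.05 (2.05e-08) and 0.42 ± 0.07 (2.73e-05) on the log2 scale. Khdrbs1, an RNA-binding partner of p120 Ras GAP, rose by 0.76 ± 0.04 (5.70e-14), and the adaptor gene Dok7 by 0.57 ± 0.07 (1.72e-07). Dok3 fell by 0.77 ± 0.17 (4.86e-04), Dok4 by 0.55 ± 0.10 (7.56e-05) and Arhgap35 by 0.18 ± 0.04 (0.00113). Dok2 had the largest rise of the list, 1.01 ± 0.20 (edgeR adjusted p = 1.84e-04), at 135 to 168 counts in EV_Tm and 62 to 96 in PBS_Tm. Spred1 and Spred3 fell outside the rule for named genes and were added to complete the family. Dok2 lay outside the rule too and was added after its value was seen.

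**Figure D5:**
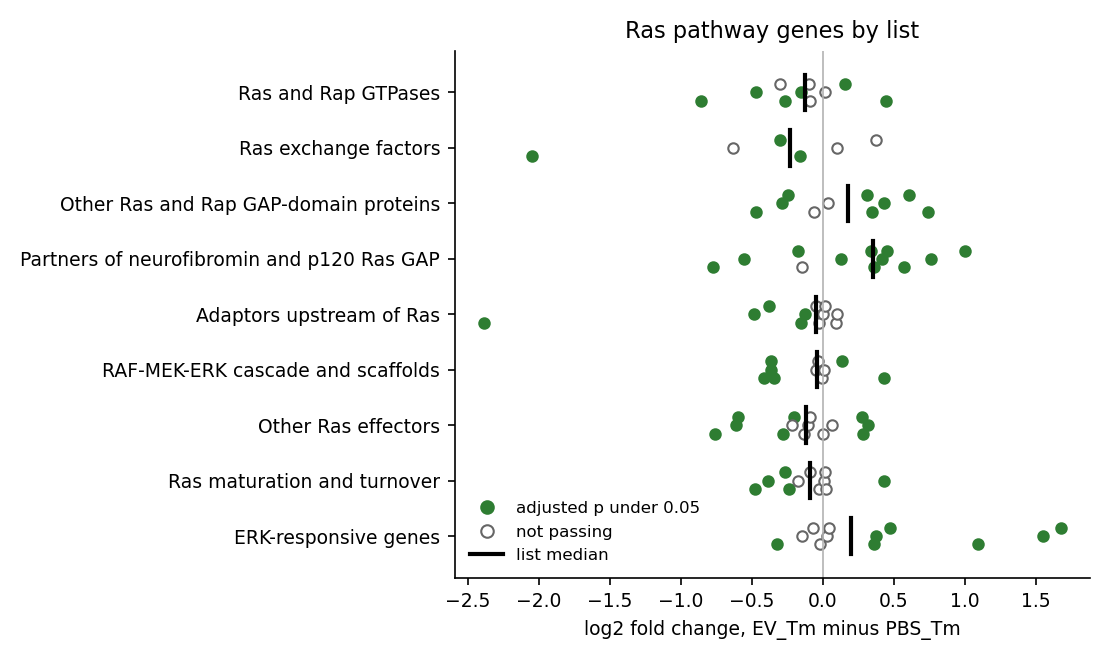
Log2 fold change, EV_Tm minus PBS_Tm, of the 96 tested Ras pathway genes in 9 lists. Filled points passed at an adjusted p under 0.05, open points did not, and the vertical bars are list medians, which run from -0.23 for exchange factors to 0.35 for partners of neurofibromin and p120 Ras GAP.

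Downstream, the RAF-MEK-ERK cascade had 2 of its 10 genes up, 4 down and 4 short of the threshold (median -0.04). Braf fell by 0.34 ± 0.05 (edgeR adjusted p = 5.41e-06), and the scaffold genes Ksr1 and Shoc2 by 0.37 ± 0.05 (3.35e-06) and 0.36 ± 0.06 (2.13e-05) on the log2 scale. Mapk3, which encodes ERK1, rose by 0.43 ± 0.05 (5.94e-08). Map2k2, which encodes MEK2, rose by 0.14 ± 0.05 (0.0418), with overlapping groups. The Map2k2 call was lost without EV_Tm replicate 1 (adjusted p = 0.0511), EV_Tm replicate 2 (0.0937), EV_Tm replicate 3 (0.200), PBS_Tm replicate 2 (0.113) or PBS_Tm replicate 3 (0.251), and with no filter on low counts (0.0537), so that 1 gene of the list then rose.

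Of other Ras effectors, 14 were tested, with 3 up, 5 down and 6 short of the threshold (median -0.12). The phosphoinositide 3-kinase subunit genes Pik3cd and Pik3cb fell by 0.76 ± 0.11 (edgeR adjusted p = 2.03e-06) and 0.61 ± 0.07 (2.99e-08) on the log2 scale. Such subunit genes were listed as a family, and binding of each product to Ras was not tested. Rassf5 fell by 0.60 ± 0.10 (1.53e-05), Rala by 0.28 ± 0.04 (7.45e-06) and Tiam1 by 0.20 ± 0.05 (0.00199). Ralgds rose by 0.32 ± 0.07 (3.11e-04), Rgl2 by 0.29 ± 0.05 (4.78e-05) and Ralb by 0.28 ± 0.05 (1.58e-04). These encode Ral exchange factors and a Ral GTPase.

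Of 11 tested genes for the lipid modification and turnover of Ras, 1 rose, 4 fell and 6 did not pass (median -0.09). Fnta, the shared subunit of the farnesyl and geranylgeranyl transferases, fell by 0.48 ± 0.04 (edgeR adjusted p = 2.20e-09) on the log2 scale, and its partner Pggt1b by 0.38 ± 0.08 (5.39e-04). Lypla1, a depalmitoylating enzyme, fell by 0.26 ± 0.08 (0.00567), while its relative Lypla2 rose by 0.43 ± 0.09 (2.11e-04). Zdhhc9, a Ras palmitoyltransferase subunit, fell by 0.24 ± 0.07 (0.0106), which did not pass once EV_Tm replicate 3 was left out (adjusted p = 0.0619).

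Among 12 ERK-responsive genes, 6 rose and 1 fell, while 5 did not pass (median 0.20). Egr1, an immediate-early transcription factor, had 331 ± 7.67 CPM in EV_Tm and 113 ± 4.07 CPM in PBS_Tm (SD, n = 3 each), a rise of 1.55 ± 0.04 (log2, SE; edgeR adjusted p = 1.31e-19). Ier3 rose by 1.09 ± 0.08 (2.02e-11) and Etv4 by 0.48 ± 0.05 (1.50e-08). Spry2, a feedback inhibitor, fell by 0.32 ± 0.07 (2.55e-04), while its relatives Spry1 (0.03 ± 0.18) and Spry4 (-0.07 ± 0.11) did not pass. The feedback phosphatase genes Dusp4, Dusp5 and Dusp6 went the other way. They rose by 0.36 ± 0.05 (edgeR adjusted p = 3.30e-06), 1.68 ± 0.29 (3.19e-05) and 0.38 ± 0.05 (1.87e-06). Of these, Dusp5 had only 126, 71 and 74 counts in EV_Tm, against 25, 29 and 32 counts in PBS_Tm. These Dusp and Spry relatives lay outside the rule for named genes and were added after their values were seen.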

How the data were processed

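Bulk RNA-seq of 6 samples in 2 groups, taken from the titles, was used. The authors removed adaptors and aligned reads with HISAT2 2.2.1, per the labels' protocols, and featureCounts 2.0.6 was used, per the submitters' processing notes. The authors deposited whole-number counts per gene, not normalized. The other deposited columns, gene start, end and length, are in bases, as the authors' annotation gives them. The notes name mm39, but 53499 of 54409 shared gene spans (98.3%), those of all 8 members included, equal GRCm38 in GENCODE M21, so coordinates are read as GRCm38. No source used here gives the strand or multi-mapping settings. Libraries of a group differed by more than sampling noise (mean chi-square per gene 3.71 to 7.78, against 97.6 to 109 between groups), and all 6 were kept.

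Counts were fitted with edgeR 4.0.16 in R 4.3.3 (TMM, filterByExpr, quasi-likelihood F test, two-sided, Benjamini-Hochberg over 16844 genes, threshold 0.05). SEs were taken as the log2 fold change over the root of F, and folds are EV_Tm over PBS_Tm. The fit was tested on simulated data. Alternatives were DESeq2 1.42.0 (size factors and test), library size alone, no filter, 1 CPM in 3 libraries, limma-voom (limma 3.58.1), a replicate block and leaving out each library. Members and lists were chosen with earlier results of these data known. Named are all members, tested neighbours within 100 kb and the 5 genes most like Rasal1 among those compared (log2 CPM, prior count 2). Of each list, the rule adds the 3 smallest p plus each direction with 5 or fewer genes. Intervals cover counting error only. Some genes that this rule names are not reported here.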

Additional observations from a re-analysis of the deposited data

How the results depend on the processing

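Rasal1 kept a log2 fold change of 2.24 to 2.29 under the other normalizations, filters, tests and the block, and of 2.20 to 2.32 when any 1 library was left out. The other tested members kept their direction under all of these alternatives. With library size alone the value for Rasa3 was 0.27, as the median of all genes also shifted by 0.04, and 6 members passed, Nf1 being the addition. Counted per kilobase of gene length instead of as reads, the share of Rasal1 in the family was 29.7% in EV_Tm and 8.87% in PBS_Tm, since Rasal1 is the shortest member. Leaving out 1 library gave shares of 13.2% to 13.9% of reads in EV_Tm and 3.25% to 3.53% in PBS_Tm, and left the order of levels per length as it was. Calls over all genes ran from 7722 to 8013 under the other alternatives and from 7080 to 7708 with 1 library left out, against 7976. Over the 9 pathway lists, 26 to 29 genes rose and 30 to 34 fell, and with library size alone 2 adaptor genes rose, where none did otherwise. The replicate numbers appear in both groups, but same-numbered libraries did not deviate together (correlations -0.04, 0.02 and -0.01). Such deviations, from means of 3 libraries, also hold counting noise. Whether same-numbered libraries were prepared together therefore cannot be told from them. With the replicate block, calls over all genes came to 7737, and 5 members passed. Depth limits Rasal3, Gm15749 and genes with under 100 counts.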
